A study of Homo sapiens with 4 samples.

Results

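The OAS and IFIT genes encode 2 families of antiviral proteins that interferon switches on in most cell types. The OAS proteins are sensors of double-stranded RNA, and OAS1, OAS2 and OAS3 answer it by making short oligoadenylates, which act as a second messenger. The IFIT proteins bind viral RNA directly, mostly through features of its end that host messenger RNA lacks, and keep it from being translated. Both families are standard readouts of interferon signalling, because their promoters carry the interferon-stimulated response element (ISRE) that is bound by ISGF3, a complex that holds STAT2 and IRF9.

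The 8 genes OAS1, OAS2, OAS3, OASL, IFIT1, IFIT2, IFIT3 and IFIT5 were picked out by symbol from the 19475 symbols measured, and each was represented by its RefSeq transcript with the highest mean level. RNA was sequenced from SKOV3 cells, a human line derived from an ovarian cancer, in 2 libraries of cells on a tissue culture plate (TCP), labelled day 0, and 2 libraries of tumor spheroids from a plate coated with polymer X, a functional polymer thin film, labelled day 8. No genetic change or drug is given for either group. Substrate and culture time changed together, and so may the medium, since the methods maintain SKOV3 in fetal bovine serum and culture spheroids in serum replacement, whereas the sample labels give serum replacement for every library. The labels call the libraries duplicates without stating separate cultures, so the p-values measure only the spread between these libraries, which may be technical. Levels are in FPKM, a tag count corrected for transcript length and for library total. The spacing of the values put the library totals between 38402000 and 44913000 tags.

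All 8 genes lay higher in both polymer X libraries than in either TCP library, as did 41.9% of the tested genes, while 48.4% lay lower in both. Of the 8 genes, 7 were called higher with limma, that is, with an adjusted p under 0.05 and a rise of 1 or more in log2(FPKM + 1), and IFIT5 was not. Of all 11964 tested genes, 10.7% were called higher and 9.45% lower. The adjusted p alone separated few genes, since all 8 passed it, as did 37.4% of the tested genes in that direction and 81.0% in either. A gene was tested if it reached 1 FPKM in at least 2 libraries. OAS1, OAS2, OASL, IFIT1 and IFIT2 met this through the polymer X libraries alone. Of the 790 tested genes that, like these 5, were under 1 FPKM in both TCP libraries, 51.8% were called higher, and of those at 1 FPKM or more in both TCP libraries, 7.68% were. Without the filter, the same 7 genes were called higher, against 6.6% of 19475 genes called higher and 5.8% lower. Fewer expressing cells and less RNA per cell cannot be told apart in such bulk libraries.

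**Figure D1:**
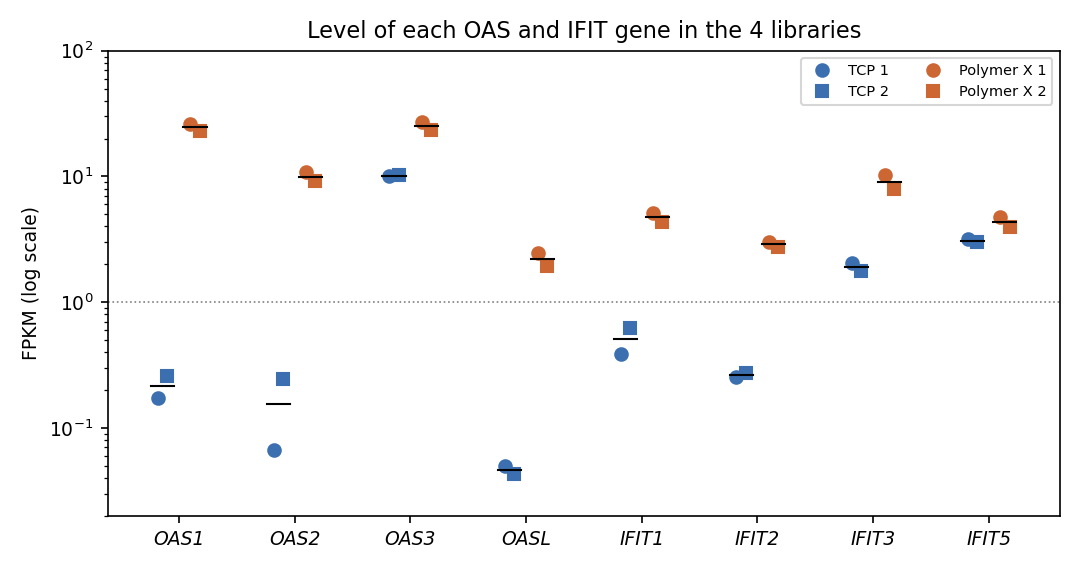
FPKM of each gene (log axis) in TCP replicates 1 and 2 (blue) and polymer X replicates 1 and 2 (orange), with the group mean as a black bar and 1 FPKM as a dotted line. OAS3 is at about 10 FPKM on TCP, 5 genes lie under 1 FPKM there, and every polymer X point is above both TCP points of its gene.

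Matches to the letters of the response element occurred in promoters of genes whose changes differ in size. The RefSeq table (GRCh38.p14) held 6 windows of 250 bases before to 50 bases after a start, for OAS1, OAS3, IFIT1, IFIT5 and 2 starts of IFIT3. Each was searched on both strands for the ISRE core, GAAANNGAAA, which 3.57% of all 35116 windows held. It was found in 5 of the 6 windows. Printed here are the 150 bases before the start for the genes with the largest log2 fold change of each family at a pseudocount of 1, OAS1 and IFIT1, and for the least changed, OAS3 and IFIT5, all on the plus strand. Capitals mark the core or, in either orientation, the same letters with a spacing of 1 base, GAAANGAAA, a form chosen after the OAS1 sequence was seen and held by 3.12% of all windows.
OAS1 (chr12:112906812-112906961): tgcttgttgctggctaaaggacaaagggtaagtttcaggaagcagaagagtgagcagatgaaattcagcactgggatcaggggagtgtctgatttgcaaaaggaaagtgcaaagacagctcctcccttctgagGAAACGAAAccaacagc
OAS3 (chr12:112938324-112938473): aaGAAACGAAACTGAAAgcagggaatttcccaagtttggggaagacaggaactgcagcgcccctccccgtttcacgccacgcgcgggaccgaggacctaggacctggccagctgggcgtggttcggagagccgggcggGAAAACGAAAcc
IFIT1 (chr10:89392473-89392622): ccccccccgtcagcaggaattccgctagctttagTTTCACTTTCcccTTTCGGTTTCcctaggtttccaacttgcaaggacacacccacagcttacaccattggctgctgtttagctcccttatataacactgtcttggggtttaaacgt
IFIT5 (chr10:89414418-89414567): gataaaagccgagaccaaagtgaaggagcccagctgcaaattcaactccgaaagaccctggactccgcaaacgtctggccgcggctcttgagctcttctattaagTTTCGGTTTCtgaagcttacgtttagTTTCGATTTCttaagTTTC

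OAS1, the smallest synthetase, made of a single catalytic unit, showed the largest rise. It was at 0.172 and 0.258 FPKM in TCP replicates 1 and 2, from 12 and 21 tags, and at 26.1 and 23.1 FPKM in polymer X replicates 1 and 2. The groups were far apart, and single polymer X libraries exceeded single TCP libraries by 89.5-fold to 152-fold. The mean rose from 0.215 ± 0.061 to 24.6 ± 2.12 FPKM (SD, n = 2), a ratio of 114. On the log2 scale limma gave 4.39 ± 0.08 (standard error, adjusted p = 7.1e-10), which ranked 15 among the tested genes by size. On this scale the pseudocount of 1 holds back genes with low levels, and with 0.1 in its place the log2 fold change was 6.30. The measured transcript, NM_016816, lies on chromosome 12, 113344582 to 113357712 (hg19, plus strand).

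OAS2, which carries a pair of OAS units, followed. Its level was 0.066 and 0.246 FPKM in the TCP libraries and 10.8 and 9.15 FPKM in the polymer X libraries. TCP replicate 2 was the higher of the TCP libraries, with 39 tags against 9, and the exact Poisson intervals of those levels (0.175 to 0.337 and 0.030 to 0.126 FPKM, counting error only) did not overlap. The ratio of the means was 63.9, and single libraries gave 37.2-fold to 164-fold. On the log2 scale limma gave 3.25 ± 0.10 (standard error, adjusted p = 8.1e-09).

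OAS3, the largest family member, which prefers long double-stranded RNA, behaved differently. It was already present on TCP, at 10.0 and 10.3 FPKM, and reached 27.1 and 23.3 FPKM on polymer X. The groups did not overlap, and the mean rose 2.48-fold. The rise in log2(FPKM + 1) was 1.23 (95% confidence interval 1.06 to 1.40, adjusted p = 4.3e-07 from limma).

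OASL, an OAS relative that has lost the synthetase activity and carries ubiquitin-like domains, was the least abundant of the 8 genes in both conditions. It was at 0.050 and 0.043 FPKM on TCP, each from 4 tags, and at 2.47 and 1.95 FPKM on polymer X. With so few TCP tags its ratio of 47.5 had a 95% exact interval of 24.0 to 111 from counting error alone. Its log2 fold change was 1.61 with the pseudocount of 1 and 3.97 with 0.1 (adjusted p = 4.1e-07 from limma for the former), so its place among the 8 depended on the pseudocount.

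IFIT1, which binds RNA caps that lack ribose methylation, was at 0.387 and 0.626 FPKM on TCP and at 5.16 and 4.38 FPKM on polymer X. The TCP replicates differed by more than their counting intervals, again with replicate 2 higher, but both stayed far below polymer X. The mean rose 9.41-fold. The rise in log2(FPKM + 1) was 1.94 ± 0.10 (standard error, limma adjusted p = 1.8e-07), the largest of the IFIT genes on this scale.

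IFIT2, a partner of IFIT1 and IFIT3 in RNA-binding complexes, lay at 0.254 and 0.274 FPKM on TCP and at 3.03 and 2.73 FPKM on polymer X, with replicates close to each other in both groups. The ratio of the means was 10.9, and the rise in log2(FPKM + 1) was 1.62 ± 0.08 (standard error, limma adjusted p = 1.4e-07). With the pseudocount of 0.1, IFIT1 and IFIT2 had the same log2 fold change of 3.03.

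IFIT3, which binds IFIT1 and stabilizes it, was expressed on TCP, at 2.05 and 1.77 FPKM, and rose to 10.2 and 8.02 FPKM on polymer X. This was a 4.77-fold rise of the mean, and the groups did not overlap. The rise in log2(FPKM + 1) was 1.79 ± 0.11 (standard error, limma adjusted p = 3.3e-07).

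IFIT5, which acts alone on RNA with triphosphate ends, changed least. It was at 3.16 and 3.01 FPKM on TCP and at 4.80 and 3.95 FPKM on polymer X. The groups did not overlap, but the gap was narrow. The ratio was 1.42 and the log2 fold change was 0.39 (95% confidence interval 0.19 to 0.59, adjusted p = 0.0027 from limma), under the minimum for a call. Without the filter on low values its adjusted p was 0.072.

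**Figure D2:**
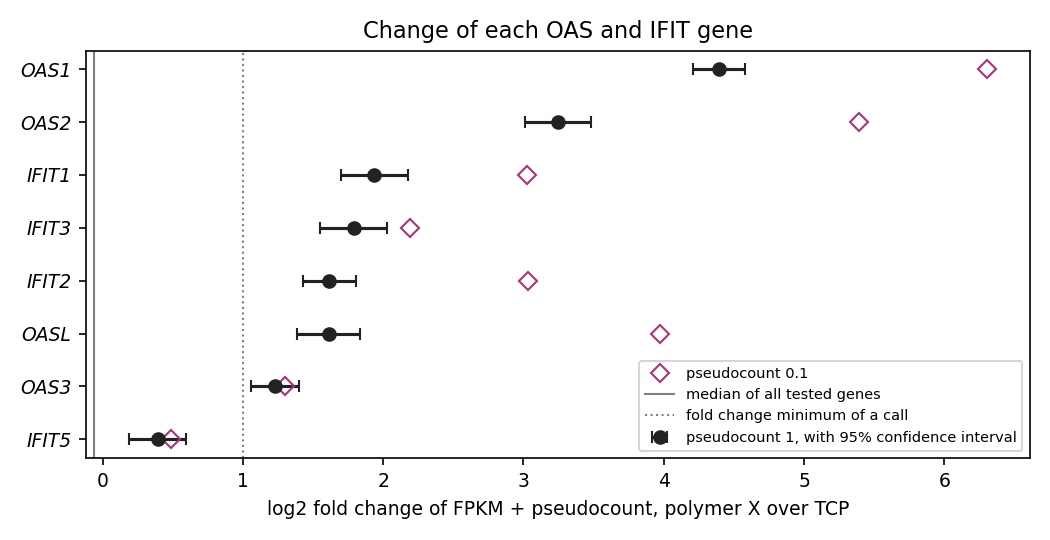
Log2 fold change of polymer X over TCP for each gene, with a pseudocount of 1 (black, 95% confidence interval from limma) and of 0.1 (open diamonds). The solid line is the median of all tested genes, -0.06, and the dotted line the minimum of 1 for a call. OAS1 and OAS2 lie furthest right, and OASL moves most with the pseudocount, from 1.61 to 3.97.

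The rises changed the share of each gene in its family, and in the IFIT family also which gene led. OAS1 made up 1.67% to 2.38% of the summed OAS level in the TCP libraries, nearly all of the rest being OAS3, and 39.3% to 40.2% on polymer X, where OAS3 made up 40.5% to 40.7%. Within a single library, a ratio that does not depend on how the library was scaled, the OAS1 level was 1.72% and 2.51% of the OAS3 level on TCP and 96.4% and 99.1% on polymer X. OAS1 and OAS3 could not be ordered on polymer X, because their ranges overlapped, and on TCP the ranges of OAS1 and OAS2 overlapped too.

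Among the IFIT genes, IFIT5 led on TCP and IFIT3 on polymer X. The order on TCP was IFIT5, IFIT3, IFIT1 and IFIT2, with no overlap between neighbours. On polymer X it was IFIT3, IFIT1, IFIT5 and IFIT2, and only IFIT1 and IFIT5 had overlapping ranges. The IFIT3 level was 0.648 and 0.588 times that of IFIT5 in the TCP libraries and 2.12 and 2.03 times in the polymer X libraries. Summed over the 4 genes, the OAS level rose from 10.3 and 10.8 to 66.4 and 57.5 FPKM, and the IFIT level from 5.85 and 5.68 to 23.2 and 19.1 FPKM.

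**Figure D3:**
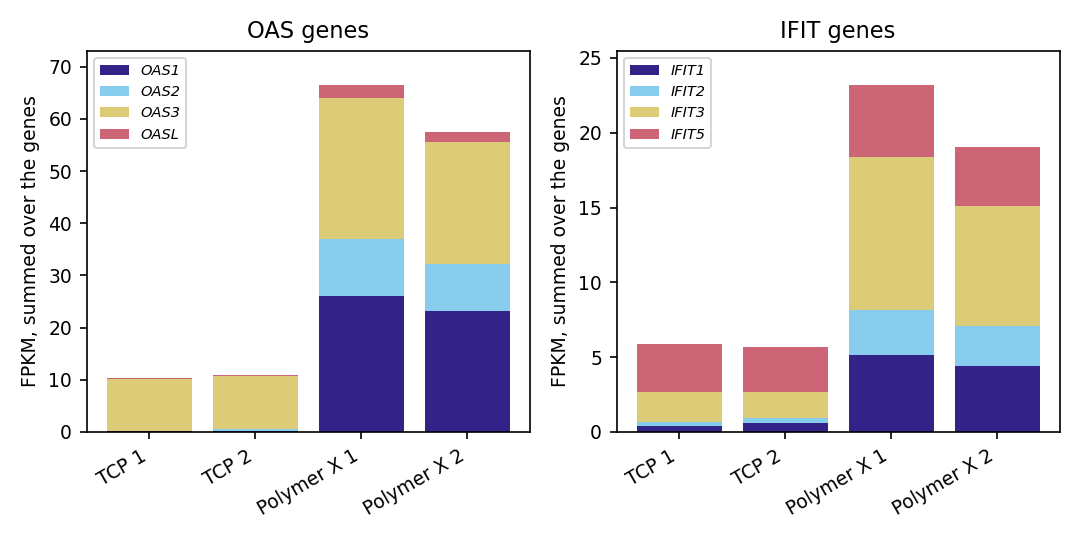
Summed FPKM of the OAS genes (left) and the IFIT genes (right) in each library, divided by gene. OAS3 fills nearly the whole bar on TCP and shares the polymer X bar with OAS1, and IFIT5 is the largest part of the IFIT bar on TCP and IFIT3 on polymer X.

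OAS1, OAS2, OASL, IFIT1 and IFIT3 had more than 1 transcript in the table, and the transcripts of a gene share tags. For OAS1, the ratio of polymer X to TCP lay between 107 and 115 over 4 transcripts. The ranges were as narrow for IFIT1, 9.41 to 9.44 over 5 transcripts, and for IFIT3, 4.68 to 4.77 over 4, and the 3 OASL transcripts gave 41.0 to 47.5. OAS2 was the exception. Its short transcript NM_001032731 (chromosome 12, 113416274 to 113426610) was at 0.250 and 0.567 FPKM on TCP and 6.93 and 5.72 FPKM on polymer X, a ratio of 15.5, against 63.9 for the long NM_016817 (113416274 to 113449528).

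The listed level of the short OAS2 transcript was thus the higher on TCP and the lower on polymer X. Its level was 3.79 and 2.30 times that of NM_016817 in the TCP libraries and 0.641 and 0.625 times in the polymer X libraries. On TCP it held 20 and 53 tags against 9 and 39, so at least 11 and 14 of its tags there lay outside the exons of NM_016817. These are few tags, and the counting took no account of strand. On polymer X, the 577 and 484 tags of the short transcript could all lie in exons shared with NM_016817. As the transcripts share tags, their listed levels do not measure separate forms of OAS2.

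**Figure D4:**
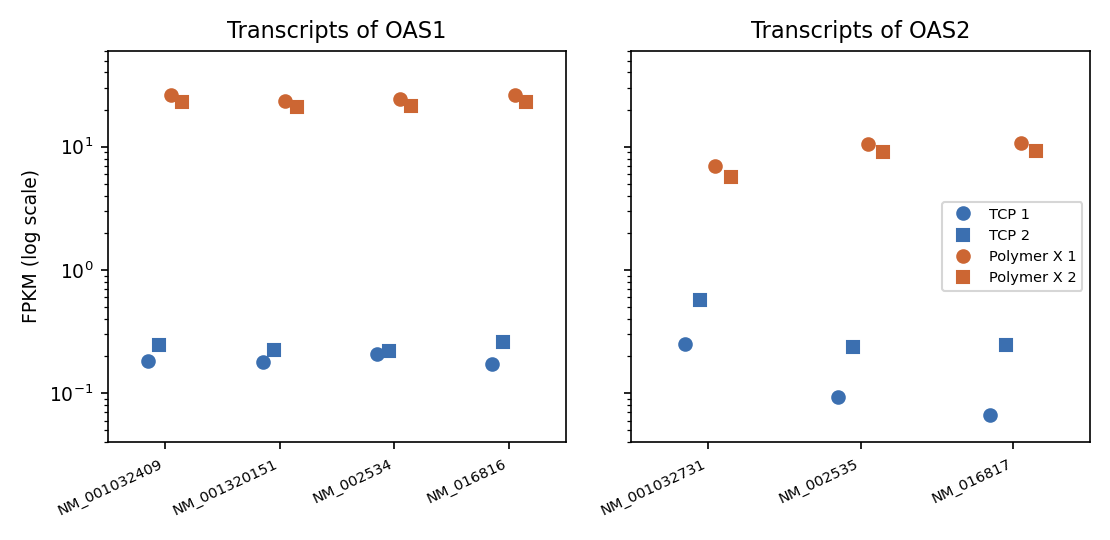
FPKM (log axis) of the listed transcripts of OAS1 (left) and OAS2 (right) in the TCP (blue) and polymer X (orange) libraries. The 4 OAS1 transcripts have nearly the same levels, and NM_001032731 of OAS2 is the highest of the 3 OAS2 transcripts on TCP and the lowest on polymer X.

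Relatives with shared sequence can exchange tags. Between the transcripts of any 2 of the 8 genes within a family, the longest identical run was 26 bases, between IFIT2 and IFIT3, and no window of 50 bases was shared. IFIT1 shared a run of 72 bases with IFIT1B, a relative that lies between IFIT3 and IFIT1. IFIT1B was at 0.025 FPKM or less in every library, or at most 2 tags. These runs came from GENCODE transcripts, and the read length is not given in the sources used here. The GENCODE sequence of IFIT1 had 1880 bases, against 4375 for the measured transcript, so part of IFIT1 was not compared.

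In the promoters printed earlier, the number of matches did not follow the size of the change. IFIT5, with the smallest log2 fold change, held 3 matches to the core, at -45, -19 and -4 from the start, the last of which runs past the printed end. OAS3, with the next smallest, held 2, at -143 and -12, the first of them overlapping a match with the 1-base spacing. IFIT1 held 2, at -116 and -103, and each IFIT3 window held 2. OAS1, with the largest change, held none in this window, and 1 match with the 1-base spacing at -17. A second element, the GAS core TTCNNNGAA of interferon gamma signalling, was found in 1 window, that of OAS1 at -168, and in 7.66% of all windows. A match is a run of letters and not a shown binding site, and the part of such matches in the changes was not tested.

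The 8 genes sit in 3 places in the genome. OAS1, OAS3 and OAS2 lie side by side within 105 kb of chromosome 12, OASL lies apart on the same chromosome, and the 4 IFIT genes lie within 119 kb of chromosome 10. Neighbouring genes did not share one direction. Next to the OAS cluster, DTX1, a Notch regulator 46.1 kb beyond OAS2, was called higher. It was at 0.755 and 0.666 FPKM on TCP and 4.27 and 3.94 FPKM on polymer X. PTPN11, 397 kb away on the other side, was called lower (log2 fold change -1.24). RPH3A was listed at 0 in all 4 libraries, and RASAL1 did not reach the filter. Beyond OASL, P2RX4, an ATP-gated channel, was called higher (1.17), and P2RX7 did not reach the filter. Around the IFIT cluster, LIPA, a lysosomal lipase 49.9 kb before IFIT2, had a log2 fold change of 0.61 and PANK1 of -0.12, neither called, CH25H was listed at 0 in all libraries, and SLC16A12 stayed at or under 0.034 FPKM.

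Around the families, genes of the interferon pathway were read from lists, whose counts stand beside the 10.7% of all tested genes that were called higher. Among the 10 tested genes of the ISGF3 and receptor list, STAT2 (log2 fold change 1.85) and IRF9 (2.12) were called higher. JAK1, the receptor kinase, had a log2 fold change of -0.99, just short of the minimum, and the median of this list was 0.42. Of the 5 tested interferon regulatory factors, IRF7, which amplifies interferon production, was called higher (1.72). Of 29 tested interferon-stimulated effectors of other families, 22 were called higher, led by IFITM1, IFI27 and IFI6. Of these 29, 10, IFITM1 among them, were under 1 FPKM in both TCP libraries and were thus tested only through polymer X, where 51.8% of all such genes were called higher, and all 10 were called. Under quantile normalization 19 of the 29 were called. Of the 17 effectors at 1 FPKM or more in both TCP libraries, 11 were called higher, against 7.68% of all such genes. The median log2 fold change of the 29 was 1.64, against -0.06 over all tested genes and 1.70 over the 8 genes here.

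Messages for interferons themselves were scarce. Of 21 interferon genes, 17, including IFNB1 (interferon beta), were listed at 0 in all 4 libraries. For IFNB1 a count of 0 allows up to 3 tags, or 0.0780 to 0.0913 FPKM, from counting error only. IFNA1 had 2 and 3 tags on TCP and 10 and 6 on polymer X, and IFNA8 had 5 tags in polymer X replicate 2. IFNE, the interferon of the female reproductive tract epithelium, was the 1 ligand tested, and it rose from 1.04 and 0.817 to 4.42 and 4.38 FPKM (log2 fold change 1.49, adjusted p = 2.7e-07 from limma).

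ABCE1, a ribosome recycling factor, was called lower (-1.35), and PDE12, which degrades the oligoadenylates, had a log2 fold change of -0.995, just under the minimum. Of the 7 tested sensors of foreign RNA and DNA, IFIH1 (1.70), DHX58 (1.32) and TMEM173 (1.62) were called higher. IFIH1 and DHX58 were under 1 FPKM in both TCP libraries, and under quantile normalization DHX58 had a log2 fold change of 0.87 and was no longer called. None of the 3 tested genes for RNA cap methylation was called, and their median log2 fold change was -0.07. Among 6 tested negative regulators of the pathway, SOCS3 was called higher (1.05) and PTPN11 lower, the latter losing its call under quantile normalization.

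**Figure D5:**
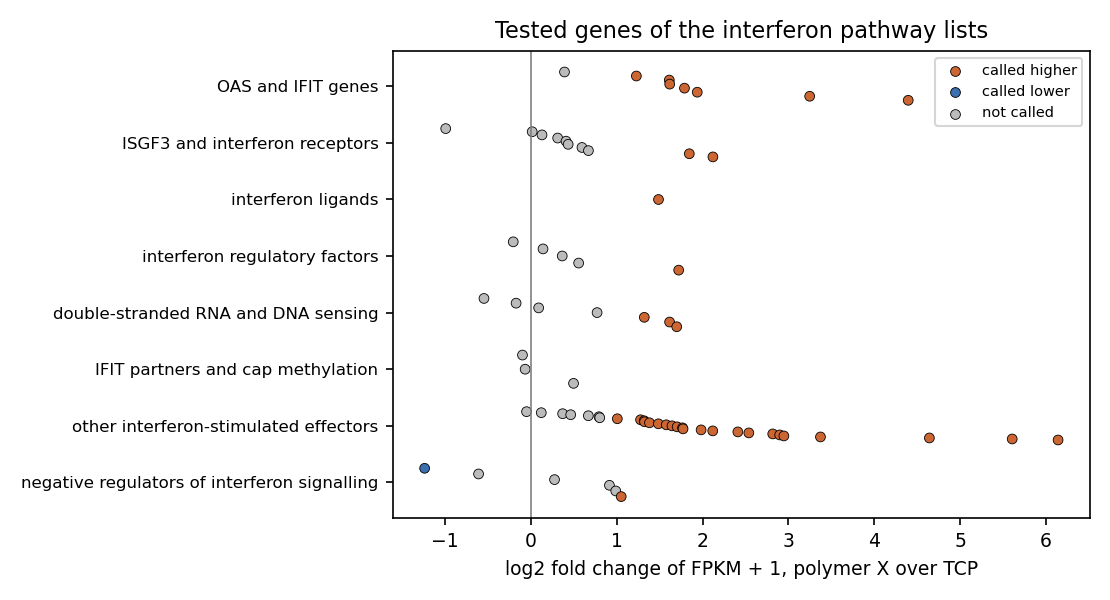
Log2 fold change, polymer X over TCP, on log2(FPKM + 1) for each tested gene of the families and of 7 pathway lists, with genes called higher in orange, called lower in blue and not called in grey. The calls among OAS and IFIT genes and among the other interferon-stimulated effectors all lie to the right, with 7 of 8 and 22 of 29 called higher.

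The polymer X replicates differed in the same way for every one of the 8 genes. Polymer X replicate 1 was above replicate 2 in 8 of 8, as in 63.8% of the tested genes. The ratio of replicate 2 to replicate 1 ran from 0.787 for IFIT3 to 0.903 for IFIT2, with a median of 0.848, against a median of 0.971 and a middle range of 0.916 to 1.03 over all tested genes. The other interferon-stimulated effectors showed the same order in 27 of 29, with a median ratio of 0.886. TCP replicate 2 was above replicate 1 in 5 of 8, as in 51.1% of the tested genes. The 7 calls remained with any 1 of the 4 libraries left out.

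The genes with the profile nearest to OAS1 over the 4 libraries, by Euclidean distance between centred log2(FPKM + 1) values, were LUM, COL6A1 and SHC2, at distances of 0.140, 0.211 and 0.278. LUM, a matrix proteoglycan, was at 0.074 and 0.232 FPKM on TCP and 24.1 and 19.6 FPKM on polymer X. For IFIT1 they were PCDHGB6, PCDHGC3 and TMEM59L, at 0.109 to 0.111. With 2 groups of 2 libraries, such nearness reflects mainly the size of the change.

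The libraries had the markers of SKOV3 in part. Of 10 ovarian epithelial markers, 8 were tested and 4 were called higher, against 10.7% of all tested genes. Among tested genes under 1 FPKM in both TCP libraries that share was 51.8%. ERBB2, which SKOV3 is known to overexpress, rose from a mean of 202 to 887 FPKM and PAX8 from 49.7 to 105 FPKM. EPCAM, at a mean of 0.136 and 1.36 FPKM, and WFDC2, at 0.067 and 8.17 FPKM, were also called higher, both from under 1 FPKM in the TCP libraries, and EPCAM lost its call under quantile normalization. KRT8 had a mean of 265 FPKM on TCP and 144 FPKM on polymer X and was not called. KRT18, at a mean of 122 and 89.5 FPKM, and KRT7, at 7.95 and 4.30 FPKM, also fell without a call. MSLN rose without a call, from a mean of 1.18 to 2.15 FPKM, and MUC16 was at or under 0.021 FPKM in every library. Of 10 leukocyte markers, CD68 was tested and called higher, CD3E and TYROBP were listed at 0, and the 9 markers other than CD68 summed to 0.289 to 0.581 FPKM on TCP and 1.39 to 2.12 FPKM on polymer X. PTPRC, which encodes the leukocyte antigen CD45, was at 0.005 FPKM or less on TCP and at 0.468 and 0.530 FPKM on polymer X. Of 10 fibroblast and endothelial markers, 4 of the 5 tested were called higher (COL1A2, COL3A1, DCN and LUM), the last 3 from under 1 FPKM on TCP. Beside this count stand the same shares, 10.7% of all tested genes and 51.8% of those under 1 FPKM on TCP. The other tested marker, COL1A1, went down, with a log2 fold change of -0.96, just short of a call. The list summed to at least 17.3 FPKM on TCP and to 76.9 to 87.2 FPKM on polymer X. PECAM1, an endothelial marker, was listed at 0 on TCP and was at 0.573 and 0.458 FPKM on polymer X. KDR, another endothelial marker, went the other way, from 0.476 and 0.438 FPKM on TCP to 0.215 and 0.11 FPKM on polymer X. PDGFRB, VWF and CDH5 stayed at or under 0.115 FPKM in every library. The part of these markers in the rise of the OAS and IFIT genes was not tested.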

How the data were processed

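The authors deposited FPKM values for 50078 RefSeq transcripts of hg19, made, per the file header, with HOMER by counting exonic tags without regard to strand and correcting for length and library total, rounded to 3 decimals. The submitters' processing notes also name STAR 2.4.0 and DESeq. The header also names ULA and V4D4 libraries, which were not analysed here. From FPKM and transcript length, whole tags were recovered, and 53.7% to 59.0% of the low counts were even, so tags may be mates and counting intervals too narrow.

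Each symbol was represented by its transcript of highest mean level. limma 3.58.1 (R 4.3.3) was run on log2(FPKM + 1) of genes that reached 1 FPKM in 2 or more libraries (mean-variance trend, Benjamini-Hochberg over 11964 genes, no replicate block) and genes were called where adjusted p was below 0.05 and the log2 fold change was 1 or more in size. An exact permutation test of 2 against 2 libraries cannot go below p = 0.333. The procedure was tested on simulated data, in which only genes with a mean of at least 1 FPKM on TCP were changed. The simulation thus does not bear on OAS1, OAS2, OASL, IFIT1 and IFIT2, which were under 1 FPKM on TCP. The members, lists and rules were chosen with earlier results of these data known. Named are the 8 genes, per pathway list the called genes up to 5 in a direction or else the 3 with the largest change, the 2 nearest genes on each side of a cluster, and the 3 genes nearest in profile. Proteins were not used here. Some list members and neighbouring genes are not reported here. MB21D1 of the sensor list was not found under that symbol. Alternatives are given after the results. Other genes named were chosen after their values were seen. Plots were drawn with matplotlib 3.10.9.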

Additional observations from a re-analysis of the deposited data

How the results depend on the processing

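Each of the 8 genes kept its direction and its side of the threshold in all 108 values refitted at the same call thresholds, with log2 fold changes between 4.17 and 6.30 for OAS1 and between 0.24 and 0.51 for IFIT5. The 7 calls became 4 of 4 tested with a filter at mean FPKM 5, and 2 (OAS1 and OAS2) with the fold minimum raised to log2 2. The counts of all genes called higher, 1285, and lower, 1131, became 702 higher with the filter at 5, which tests fewer genes, 4477 and 5212 without a fold change minimum, 281 and 150 at a minimum of 2, and 2432 higher with no filter and a pseudocount of 0.1, a setting added after the data were seen. With 1 library left out, the lone library of its group is assumed to vary like the other group. These fits gave log2 fold changes of 4.31 to 4.48 for OAS1, 3.13 to 3.36 for OAS2, 1.12 to 1.33 for OAS3 and 1.63 to 1.94 for IFIT3. With the replicate block, 7 of the 8 genes, and 1285 and 1131 of all genes, were called as before. The replicate numbers were not taken to pair the libraries, as deviations of same-numbered ones had a correlation of 0.093 over 11964 genes. With 2 libraries per group, both pairs give this same value. Searching before the start only left the ISRE core in 5 windows, and the 1-base spacing, added later, was in 3. Of 256 pathway list counts, 42 moved by over 1.5 times or went to or from 0. Depth limits OAS1, OAS2 and OASL on TCP, with 4 to 39 tags, and the ratio of OAS1 has a 95% counting interval of 79.9 to 164.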
